A study of Homo sapiens with 10 samples.

Results

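The 10 genes described here encode inflammatory cytokines that epithelial cells secrete and 2 feedback inhibitors of NF-kB, and they were found by symbol among the 20327 genes of each table. They are the interleukin-6 family cytokines IL6, LIF and IL11, the CXC chemokines CXCL8, CXCL1, CXCL2 and CXCL3, the CC chemokine CCL2, and the inhibitors NFKBIA and TNFAIP3. All 10 were measured in all 10 libraries. RNA was sequenced from wild type hTERT RPE-1 cells, a human retinal pigment epithelial line made immortal with telomerase, after 48 h in medium with 0.1% serum. One experiment had 3 libraries of cells given vehicle (DMSO) for 30 min and 3 of cells given 200 µM merbarone, a catalytic inhibitor of topoisomerase II, for 30 min. The other had 2 libraries of untreated cells and 2 of cells given 200 µM merbarone for 2 h, so its control had received no vehicle. The question was how RNA levels respond to the drug at an early and a later time, in a series on polymerase pausing and DNA supercoiling. Nothing in the labels says that replicates came from separate cultures, and p-values then measure only the spread between these libraries, which may be technical.

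NF-kB is a family of dimeric transcription factors that IκB proteins hold in the cytoplasm. When the IKK kinase marks IκB for destruction, the dimers enter the nucleus and activate cytokine and chemokine genes together with the genes of their own inhibitors. NFKBIA encodes IκBα, which takes NF-kB back out of the nucleus, and TNFAIP3 encodes A20, a ubiquitin-editing enzyme that stops signalling upstream of IKK. IL6, LIF and IL11 act through receptors that share the gp130 chain (IL6ST), the CXC chemokines named here attract neutrophils, and CCL2 attracts monocytes. Many cytokine mRNAs carry AU-rich elements, by which proteins such as tristetraprolin (ZFP36) mark them for decay.

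The promoters of the inhibitors and cytokines were searched for 1 set of κB letters that NF-kB dimers are known to bind. RefSeq promoters (GRCh38.p14, 250 bases before to 50 after the start) were listed for 8 of the 10 genes, all but CCL2 and LIF. The κB consensus GGGRNWYYCC, searched on both strands, was found in 6 of the 8 (IL6, CXCL1, CXCL2, CXCL3, NFKBIA and TNFAIP3) and in 5.91% of all 35116 promoters. In CXCL1, CXCL2 and CXCL3, 2 overlapping matches on opposite strands form 1 site. The AP-1 letters TGANTCA were found on either strand in CXCL8 and IL11, and in 7.71% of all promoters. The 150 bases before the start are shown for 5 genes, with the κB or AP-1 match in capitals. The κB site with 10 bases on each side is shown for the 3 related chemokines, to compare them.
NFKBIA promoter, chr14:35404750-35404899, minus strand: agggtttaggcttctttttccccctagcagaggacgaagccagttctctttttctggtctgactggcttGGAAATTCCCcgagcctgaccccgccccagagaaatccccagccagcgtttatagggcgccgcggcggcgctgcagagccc
TNFAIP3 promoter, chr6:137867109-137867258, plus strand: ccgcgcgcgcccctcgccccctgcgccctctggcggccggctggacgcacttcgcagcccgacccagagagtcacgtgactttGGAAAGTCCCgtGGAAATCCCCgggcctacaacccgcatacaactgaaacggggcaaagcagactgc
IL6 promoter, chr7:22727050-22727199, plus strand: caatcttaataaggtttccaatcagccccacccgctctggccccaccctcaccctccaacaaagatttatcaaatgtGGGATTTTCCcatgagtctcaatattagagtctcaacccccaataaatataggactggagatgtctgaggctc
CXCL8 promoter, chr4:73740419-73740568, plus strand: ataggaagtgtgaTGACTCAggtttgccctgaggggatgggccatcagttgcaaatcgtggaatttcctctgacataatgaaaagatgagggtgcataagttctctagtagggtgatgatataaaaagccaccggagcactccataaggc
IL11 promoter, chr19:55370464-55370613, minus strand: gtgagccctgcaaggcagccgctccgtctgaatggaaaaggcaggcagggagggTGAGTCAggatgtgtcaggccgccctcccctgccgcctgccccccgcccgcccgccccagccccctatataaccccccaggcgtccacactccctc
CXCL1 site: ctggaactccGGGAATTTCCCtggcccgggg
CXCL2 site: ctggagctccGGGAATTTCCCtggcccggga
CXCL3 site: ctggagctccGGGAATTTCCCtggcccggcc
The capitals are the κB matches in NFKBIA, TNFAIP3, IL6 and the 3 chemokine sites, and the AP-1 match in CXCL8 and IL11. TNFAIP3 held 2 separate κB matches close to each other. The CXCL8 sequence also holds tggaatttcc, which differs from the κB consensus in its first letter and so was not counted. The search therefore does not show that CXCL8 lacks a κB site. A match is a run of letters and no evidence of binding in these cells.

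Levels are in RPKM (reads of a gene scaled to its length and to the library's depth), which the authors deposited for each library. The reads behind them were recovered from the steps between values and came to 26633780 to 38225538 per library in the 30 min experiment and 11956652 to 13691014 in the 2 h experiment. LIF had 2467 to 10888 reads per library, CCL2 309 to 1221, NFKBIA 262 to 1049, IL11 148 to 724 and TNFAIP3 62 to 240. IL6 had 39 to 137 reads and CXCL8 10 to 114, while CXCL1, CXCL2 and CXCL3 had 21 or fewer in any library. Of 10 markers of the labelled cell type, 3 averaged 1 RPKM or more: BEST1 (2.10 to 20.0 RPKM), OTX2 (2.35 to 4.61 RPKM) and PMEL (3.68 to 5.07 RPKM). RPE65 (at most 0.0656 RPKM) and TYR (at most 0.00338 RPKM) were close to 0, and the rest stayed under 1 RPKM. Of 8 epithelial and mesenchymal structure genes, 6 averaged 1 RPKM or more. Vimentin was the most abundant (560 to 1105 RPKM), while CDH1 (at most 0.00234 RPKM) and EPCAM (at most 0.00123 RPKM) were close to 0. Of leukocyte markers, CD3E was at 0 in every library and PTPRC reached 0.00758 RPKM, while CD68 measured 17.4 to 31.0 RPKM. In these bulk libraries, a change in the number of cells that express a gene and a change in its RNA per cell cannot be told apart.

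Between genes, levels were compared per kilobase of the canonical mRNA, since RPKM here counts introns in the length of most genes. In untreated cells CCL2 (55.8 ± 11.7 reads per kilobase of mRNA, scaled to depth as RPKM is, SD, n = 2) and LIF (52.7 ± 0.877) were the most abundant and did not differ beyond their spread. NFKBIA followed at 15.2 ± 1.57, then IL11 at 6.33 ± 2.34 and IL6 at 4.19 ± 2.26, which lay within each other's spread. CXCL8 (1.12 ± 0.937) and TNFAIP3 (1.10 ± 0.144) were lower, and CXCL1 (0.210 ± 0.207), CXCL2 (0.113 ± 0.159) and CXCL3 (0.0698 ± 0.0987) were lowest, with spreads that overlapped. In the DMSO libraries of the other experiment LIF (57.6 ± 22.7, SD, n = 3) and CCL2 (28.0 ± 13.1) were again the top 2. After 2 h of merbarone the same scale gave CCL2 110.1 ± 6.34, LIF 69.0 ± 13.9, NFKBIA 47.3 ± 2.68 and IL11 19.1 ± 5.96 (SD, n = 2). CXCL8 (4.92 ± 0.217) and IL6 (4.86 ± 0.637) did not differ beyond their spread, and TNFAIP3 stood at 3.75 ± 0.0065.

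**Figure D1:**
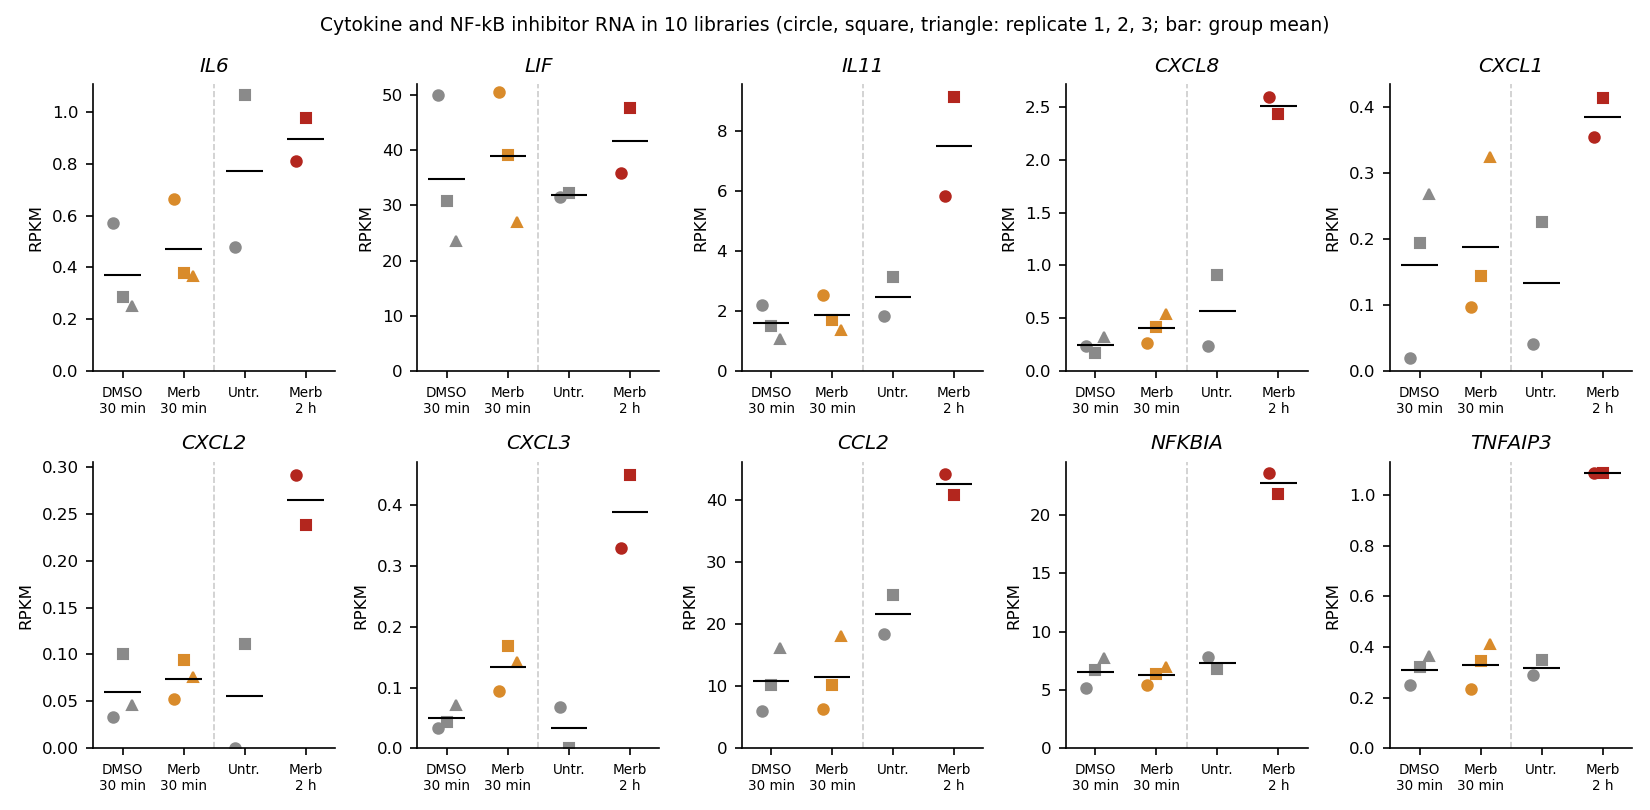
RPKM (vertical axis, a separate scale for each gene, starting at 0) of the 10 genes in every library, by group, with the experiments split by a dashed line. Points are libraries, with circle, square and triangle for replicates 1, 2 and 3, and bars are group means; after 2 h of merbarone 9 of the 10 genes have both libraries above both untreated ones, IL6 being the exception.

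In the 2 h comparison 4 of the 10 genes passed the test, all higher after merbarone. CCL2 rose 1.97-fold, IL11 3.02-fold and NFKBIA 3.12-fold in group means. CXCL8 rose 4.39-fold, but its untreated mean (0.572 RPKM) was under the filter of the test, which it passed only through its treated libraries. LIF did not pass, and the other 5 genes were too low to be tested. The test was limma on log2(RPKM + 1), for genes that averaged 1 RPKM or more, with p-values adjusted over all 6620 genes tested and a threshold of 0.05. Of the 4 genes that also averaged 1 RPKM or more in the untreated libraries (CCL2, LIF, IL11 and NFKBIA), 3 were called, while 13.1% of all tested genes were called, 5.98% higher and 7.1% lower. The median log2 fold change over all tested genes was -0.05. Treated libraries lay above untreated ones without overlap in 9 of the 10 genes, against 27.5% of the 16810 genes with any reads. The number of genes called over the table was 866. Leaving out each library in turn leaves 1 library in a group, so only the log2 fold changes of those fits are given. They ran from 0.76 to 1.17 for CCL2, 1.00 to 1.57 for IL11, 1.43 to 1.61 for NFKBIA and 0.16 to 0.57 for LIF. Vehicle was absent from the control, so an effect of merbarone and one of its solvent cannot be told apart.

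NFKBIA (ENSG00000100906; GRCh37 chromosome 14, 35870285 to 35873955, minus strand), the IκBα gene whose κB site is printed above, measured 7.83 and 6.76 RPKM in the untreated libraries. It measured 23.6 and 21.8 RPKM in the 2 h merbarone libraries. Both treated libraries lay far above both controls, which differed from each other by 1.16-fold. The means were 7.30 ± 0.754 and 22.7 ± 1.29 RPKM (SD, n = 2), a ratio of 3.12, and limma put the log2 difference at 1.52 ± 0.11 (SE; adjusted p 5.16e-05). NFKBIA was called in every alternative analysis that kept all libraries. Its highest adjusted p among them was 0.0490, in limma without the filter on low values, just under the threshold.

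TNFAIP3 (ENSG00000118503; chromosome 6, 138188351 to 138204451, plus strand), the A20 gene with 2 κB matches, measured 0.289 and 0.348 RPKM untreated. Both 2 h merbarone libraries measured 1.09 RPKM. The treated libraries agreed closely and did not overlap with the controls, with a ratio of means of 3.41. Its mean over the 4 libraries was under 1 RPKM, so it was not tested in the main analysis. Voom, limma's method for counts, was run on the recovered reads of 13440 genes, of which 14.0% were called and 7.94% were higher. There, TNFAIP3 rose by 1.78 ± 0.20 on the log2 scale (SE; adjusted p 2.40e-06). Without the filter on low values, limma on log2(RPKM + 1) gave it an adjusted p of 0.0503. The antisense gene WAKMAR2 overlaps TNFAIP3, and without a statement that strand was used in counting, reads of such partners cannot be told apart.

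Among the chemokines, CXCL8 (interleukin-8; ENSG00000169429; chromosome 4, 74606236 to 74609433, plus strand) measured 0.234 and 0.911 RPKM untreated. After 2 h of merbarone it measured 2.59 and 2.44 RPKM. The treated libraries were alike, while the untreated libraries differed by 3.90-fold, replicate 2 being the higher. In limma CXCL8 rose by 1.19 ± 0.16 on the log2 scale (SE; adjusted p 0.00249), and by 2.17 with a pseudocount of 0.1 RPKM in place of 1. In voom on recovered reads the rise was 2.44 ± 0.37 (SE; adjusted p 0.000154).

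CCL2 (monocyte chemoattractant protein; ENSG00000108691; chromosome 17, 32582293 to 32584227, plus strand) measured 18.3 and 24.7 RPKM untreated. It measured 44.2 and 40.7 RPKM after 2 h of merbarone. The groups did not overlap, and the library that was lower among the controls shared its number with the one that was higher among the treated. The means were 21.5 ± 4.53 and 42.5 ± 2.45 RPKM (SD, n = 2), and the rise in limma was 0.96 ± 0.14 on the log2 scale (SE; adjusted p 0.00395). With all 10 libraries in 1 fit, which takes its spread also from the 30 min experiment, CCL2 had an adjusted p of 0.209. With genes of any level in the fit, 0.315% of 16810 genes were called. There the adjusted p was 0.120 for CCL2, 0.131 for CXCL8 and 0.151 for IL11, and NFKBIA alone stayed called, at 0.0490.

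CXCL1, CXCL2 and CXCL3 lie near CXCL8 on chromosome 4 (74735110 to 74737025 on the plus strand, 74962757 to 74964913 and 74902306 to 74904524 on the minus strand). CXCL1 measured 0.0406 and 0.226 RPKM untreated and 0.355 and 0.414 RPKM after 2 h. CXCL2 measured 0 and 0.111 RPKM untreated and 0.291 and 0.238 RPKM after 2 h. CXCL3 measured 0.0676 and 0 RPKM untreated and 0.329 and 0.449 RPKM after 2 h. All 3 had both treated libraries above both controls, but on very few reads, and a library at 0 allows up to 3 reads. CXCL1 had 19 summed reads in the treated libraries and 6 in the controls, a ratio per depth of 2.995 (exact 95% binomial interval 1.15 to 9.16). CXCL2 had 16 against 3 reads, a ratio of 5.04 (1.44 to 27.0). CXCL3 had 23 against 2 reads, a ratio of 10.9 (2.69 to 95.2). These intervals cover counting error only, and not the spread between libraries. The 3 genes are close copies: 5.33% of the 50-base stretches of the CXCL1 mRNA, 10.1% of those of CXCL2 and 5.26% of those of CXCL3 also occur in another of the 10 genes' mRNAs, so their values are uncertain. For 36-base stretches the shares are 11.4%, 18.1% and 8.17%, and the read length is not given in the sources used here. The printed sites of the 3 genes have the same capitals.

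Within the interleukin-6 family, IL11 (ENSG00000095752; chromosome 19, 55875750 to 55881831, minus strand), a cytokine of stromal and epithelial cells, measured 1.83 and 3.12 RPKM untreated. It measured 5.84 and 9.14 RPKM after 2 h of merbarone. The groups did not overlap, and replicate 2 was the higher in both. The means were 2.48 ± 0.916 and 7.49 ± 2.33 RPKM (SD, n = 2), a ratio of 3.02, and the rise in limma was 1.29 ± 0.20 on the log2 scale (SE; adjusted p 0.00503).

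LIF (leukaemia inhibitory factor; ENSG00000128342; chromosome 22, 30636442 to 30642748, minus strand) measured 31.5 and 32.2 RPKM untreated. It measured 35.7 and 47.6 RPKM after 2 h of merbarone. The groups did not overlap, but the treated libraries differed from each other by 1.33-fold. The antisense genes LIF-AS1 and LIF-AS2 overlap LIF, and reads of such partners cannot be told apart here. The limma log2 fold change of 0.36 ± 0.14 (SE) had an adjusted p of 0.119. The adjusted p was 0.0394 in voom on recovered reads, 0.0496 after quantile normalization and 0.532 with all 10 libraries in 1 fit. Leaving out each library in turn gave log2 fold changes from 0.16 (without merbarone replicate 2) to 0.57 (without merbarone replicate 1).

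IL6 (ENSG00000136244; chromosome 7, 22765503 to 22771621, plus strand), the interleukin after which the family is named, measured 0.478 and 1.07 RPKM untreated. It measured 0.811 and 0.977 RPKM after 2 h of merbarone. The treated libraries lay between the controls, and IL6 was the only one of the 10 genes whose groups overlapped at 2 h. It was under the filter, and voom on recovered reads put its difference at 0.34 ± 0.29 on the log2 scale (SE; adjusted p 0.470). STEAP1B, which is also in the tables, and IL6-AS1 overlap IL6 on the other strand, so the reads of IL6 are uncertain.

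**Figure D2:**
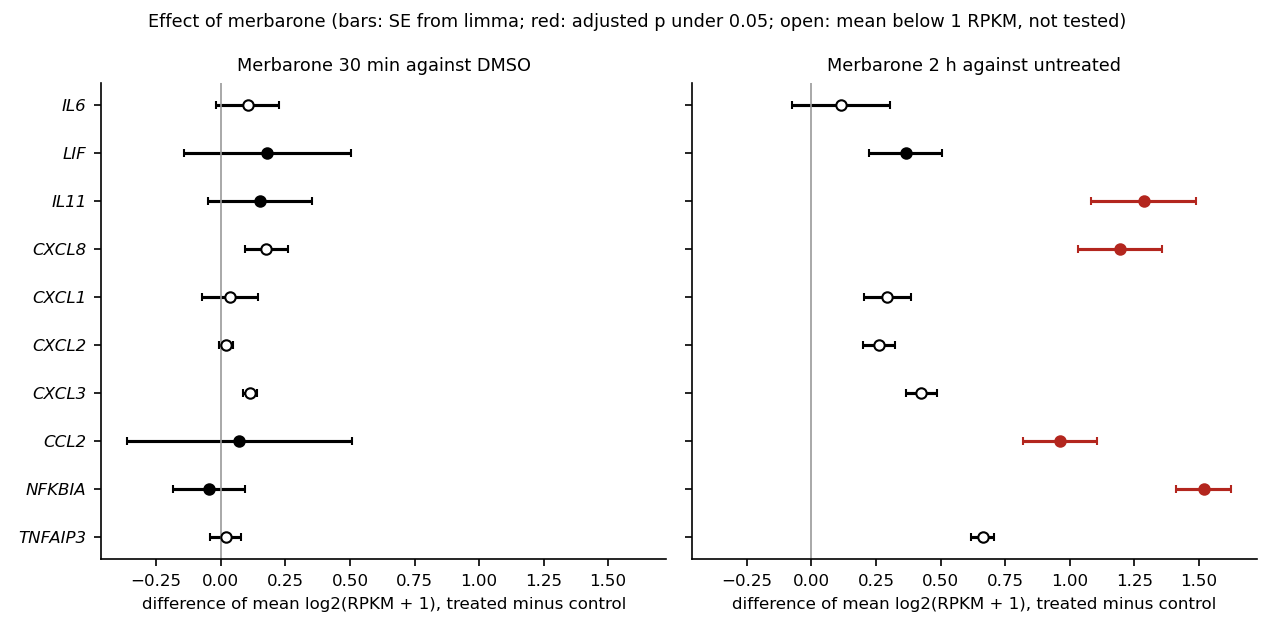
Difference of mean log2(RPKM + 1), treated minus control, for the 10 genes at 30 min (left) and 2 h (right) on a shared horizontal axis, with bars of 1 SE from limma without the replicate block. Red points passed an adjusted p of 0.05, black points did not, and open points had a mean under 1 RPKM and were not tested (their SE is from the fit without the filter); at 2 h NFKBIA (1.52), IL11 (1.29), CXCL8 (1.19) and CCL2 (0.96) are red, and at 30 min no point is.

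At 30 min none of these genes passed the test. Limma called 0 of the 4 tested (CCL2, LIF, IL11 and NFKBIA), none had an unadjusted p under 0.05, and 0.0154% of 6500 genes were called. Voom on the recovered reads tested 8 of the 10 and called 0, against 0.00714% of 14012 genes, also with none at an unadjusted p under 0.05. The largest of the 4 log2 fold changes was that of LIF, 0.18 ± 0.32 (SE, libraries not paired by number). Those of IL11, CCL2 and NFKBIA were 0.15 ± 0.20, 0.07 ± 0.44 and -0.05 ± 0.14. The 1 gene called over the table became 0 without DMSO replicate 2 or without merbarone replicate 2, and 2 without merbarone replicate 3. Blocking on the replicate number gave 8 called genes (0.123%) and again 0 of these 4. The block kept the 4 log2 fold changes and took the spread between replicate numbers out of their SE. The SE was then 0.066 for LIF, 0.030 for IL11, 0.045 for CCL2 and 0.046 for NFKBIA. In that fit 2 of them had an unadjusted p under 0.05, LIF (0.0356) and IL11 (0.00266, adjusted p 0.689).

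The interleukin-6 family differed between replicate numbers more than between treatments at 30 min. LIF measured 50.02, 30.9 and 23.4 RPKM in DMSO replicates 1, 2 and 3, and 50.5, 39.0 and 27.0 RPKM in the same merbarone replicates. IL11 measured 2.19, 1.51 and 1.06 RPKM in DMSO and 2.52, 1.71 and 1.36 RPKM after merbarone. IL6 measured 0.570, 0.288 and 0.252 RPKM in DMSO and 0.665, 0.379 and 0.368 RPKM after merbarone. For all 3, the replicate 1 libraries of both groups were the highest and the groups overlapped, while each merbarone library lay above the DMSO library of its number.

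The opposite ranking held for CCL2 and the inhibitors. CCL2 measured 6.04, 10.2 and 16.1 RPKM in DMSO and 6.33, 10.2 and 18.2 RPKM after merbarone. NFKBIA measured 5.20, 6.70 and 7.70 RPKM in DMSO and 5.45, 6.37 and 6.95 RPKM after merbarone. TNFAIP3 measured 0.249, 0.320 and 0.364 RPKM in DMSO and 0.232, 0.343 and 0.411 RPKM after merbarone. The replicate 1 libraries of both groups were the lowest for these 3 genes, and the groups overlapped. Within the DMSO group the highest library was 2.67 times the lowest for CCL2, 2.13 times for LIF and 1.48 times for NFKBIA, against ratios of treated to control means of 1.07, 1.12 and 0.957. In 8 of the 10 genes the 3 replicate numbers ranked alike in both groups, including the 4 with a mean of at least 1 RPKM. Of all 6500 tested genes, which have at least that mean, 44.3% did so. The share among genes of lower level, to which the others of the 10 belong, was not computed.

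The CXC chemokines were low at 30 min. CXCL8 measured 0.234, 0.172 and 0.326 RPKM in DMSO and 0.268, 0.415 and 0.542 RPKM after merbarone. CXCL3 measured 0.0338, 0.0440 and 0.0707 RPKM in DMSO and 0.0937, 0.168 and 0.141 RPKM after merbarone. CXCL3 was the 1 gene of the 10 without overlap between the groups. Its treated libraries were the higher, as they were without overlap in 1.65% of the 17355 genes with any reads, and it rested on 32 against 11 summed reads (ratio per depth 2.62, exact 95% binomial interval 1.29 to 5.76). CXCL8 overlapped between groups and was higher in each of the 3 same-numbered pairs, by 1.15-fold, 2.41-fold and 1.66-fold. CXCL1 (0.0203 to 0.269 RPKM in DMSO, 0.0963 to 0.324 RPKM after merbarone) and CXCL2 (0.0332 to 0.101 and 0.0526 to 0.0945 RPKM) overlapped. In all, 5 genes (IL6, CXCL8, CXCL3, LIF and IL11) were higher in all 3 same-numbered pairs, against 10.9% of genes with any reads.

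**Figure D3:**
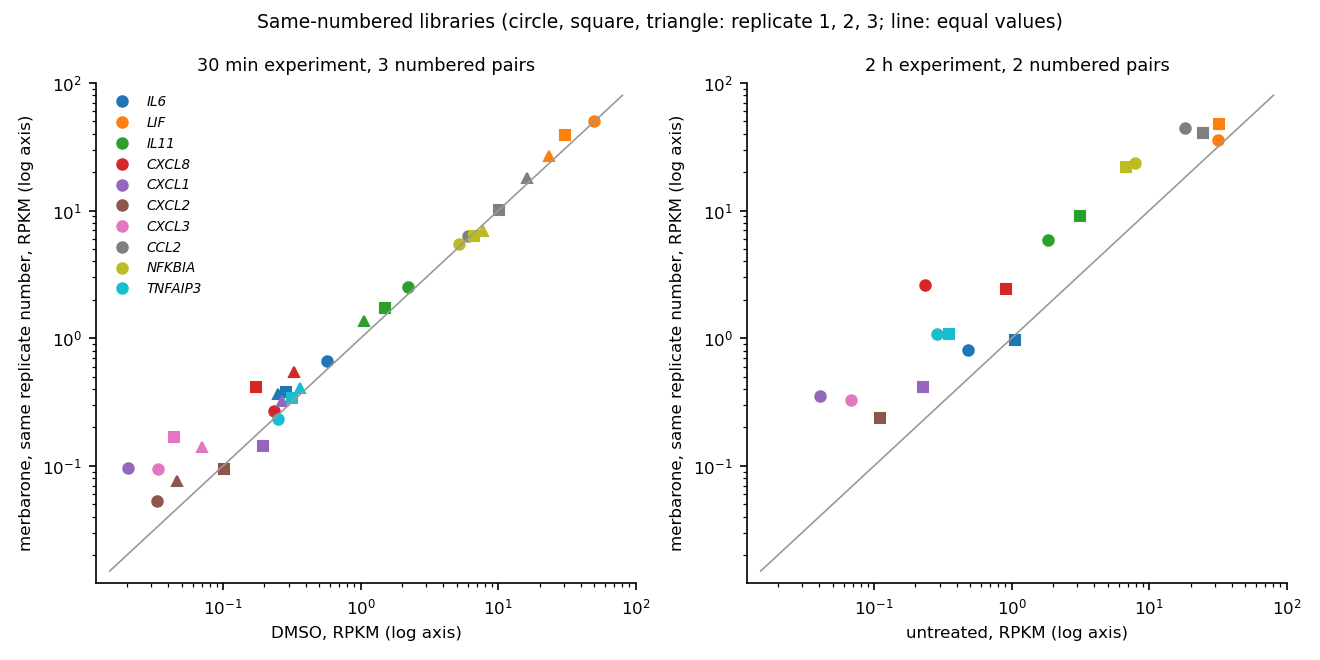
RPKM of the 10 genes in each merbarone library (vertical log axis) against the control library of the same replicate number (horizontal log axis), at 30 min (left) and 2 h (right), with colours for genes, shapes for replicate numbers and a line of equal values. The 30 min points of LIF, IL11, CCL2 and NFKBIA lie close to the line, those of CXCL3 lie above it (2.77, 3.82 and 2.00 times the DMSO library), as do CXCL1 in replicate 1 (4.75 times) and CXCL8 in replicate 2 (2.41 times), and the 2 h points lie above it except IL6 in replicate 2; 2 pairs at 2 h with an untreated value of 0 (CXCL2 replicate 1, CXCL3 replicate 2) are not drawn.

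The difference between the effects was tested as 2 h minus 30 min, in 1 fit over all 10 libraries with 6558 genes tested. The times, the kinds of control and the experiments cannot be told apart in it. NFKBIA differed, by 1.56 ± 0.20 (SE) on the log2 scale with an adjusted p of 0.00510. The differences of IL11 (1.14 ± 0.36, adjusted p 0.172), CCL2 (0.89 ± 0.59, 0.506) and LIF (0.19 ± 0.44, 0.886) did not pass. So 1 of 4 was called, against 1.63% of all tested genes. With the replicate number as a block within each experiment, NFKBIA, IL11 (adjusted p 4.94e-05) and CCL2 (0.00924) were called, 3 of 4, against 19.1% of all tested genes. The 107 genes called over the table became 62 without merbarone 30 min replicate 2, 62 without merbarone 30 min replicate 3, 47 without untreated replicate 2, 42 without merbarone 2 h replicate 1 and 38 without merbarone 2 h replicate 2, and NFKBIA was called in each of these. TNFAIP3 was under the filter in this fit. It passed with genes of any level in the fit (adjusted p 0.0153; 2.04% of 17680 genes called). It differed by 1.73 ± 0.38 (SE) in voom on recovered reads, with an adjusted p of 0.104 (0.475% of 13900 genes called). With the block, voom gave it an adjusted p of 0.000222, where 2100 of these 13900 genes were called.

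Of 13 listed NF-kB subunits and members of the kinase complex that releases them, 11 were found by symbol and 4 were tested at 2 h. Of these 1 rose, where 5.98% of all tested genes rose and 7.1% fell. NFKB2, which encodes the p100 precursor of the p52 subunit, rose by a log2 fold change of 0.37 with an adjusted p of 0.0396, and the other 3 did not pass. RELA, the p65 subunit, measured 10.1 and 10.7 RPKM untreated and 11.2 and 10.8 RPKM after 2 h, with an adjusted p of 0.621. NFKB1, the p50 gene, was under the filter, at 0.336 and 0.316 RPKM untreated and 0.376 and 0.407 RPKM treated. The list's median log2 fold change was 0.10, against -0.05 over all tested genes.

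Of the other IκB proteins and NF-kB brakes, 10 of 15 were tested and 2 rose, against 5.98% of all tested genes. NFKBIE, which encodes IκBε, measured 1.32 and 1.93 RPKM untreated and 2.83 and 3.33 RPKM after 2 h (log2 fold change 0.64, adjusted p 0.00928). BCL3, an IκB-like cofactor of the p50 and p52 dimers, measured 1.29 and 1.80 RPKM and then 2.73 and 2.96 RPKM (0.60, adjusted p 0.00701). The remaining 8 did not pass, and the list's median was 0.05.

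Of 28 other NF-kB targets, 26 were found by symbol and 9 were tested. Of these 3 rose, against 5.98% of all tested genes, with a list median of 0.21. IER3, an early stress-response gene, measured 36.8 and 46.9 RPKM untreated and 139.9 and 144.9 RPKM after 2 h, with an adjusted p of 7.99e-05. Its log2 fold change of 1.75 ± 0.13 (SE) lay above that of NFKBIA, and it also passed in the difference of the effects (1.64 ± 0.24 SE, adjusted p 0.0107). IRF1, an interferon regulatory factor, rose by a log2 fold change of 0.50 (adjusted p 0.00961) and TNFAIP2 by 0.34 (adjusted p 0.0299). At 30 min IER3 measured 38.5, 32.8 and 29.9 RPKM in DMSO and 42.2, 29.2 and 39.4 RPKM after merbarone, which overlapped.

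Of 28 receptors and signal transducers 13 were tested at 2 h. Of these 2 rose and 3 fell, against 5.98% and 7.1% of all tested genes, and 8 did not pass, with a list median of 0.13. SOCS3, the feedback inhibitor of gp130 signalling, measured 10.7 and 12.3 RPKM untreated and 19.8 and 18.9 RPKM treated (log2 fold change 0.71, adjusted p 0.00398). ACKR3, an atypical chemokine receptor, measured 2.54 and 2.58 RPKM and then 4.17 and 4.61 RPKM (0.60, adjusted p 0.00271), and also passed in the difference of the effects (0.56, adjusted p 0.00272). At 30 min ACKR3 measured only 0.324 to 0.384 RPKM, under the filter, so it entered that fit through the 2 h experiment alone, and the log2(RPKM + 1) scale understates any 30 min change. TLR4, the endotoxin receptor, fell from 5.00 and 4.06 RPKM to 3.06 and 3.20 RPKM (-0.42, adjusted p 0.0282), and TRADD, the adaptor of the TNF receptor, from 3.99 and 4.95 RPKM to 3.16 and 3.12 RPKM (-0.39, adjusted p 0.0343).

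Among AU-rich element regulators, 11 of 13 were tested at both times, and 2 rose at 2 h, against 5.98% of all tested genes. ZFP36, which encodes tristetraprolin, measured 5.43 and 6.78 RPKM untreated and 9.27 and 8.08 RPKM after 2 h (log2 fold change 0.45, adjusted p 0.0380). ZFP36L1, of the same family, measured 38.1 and 38.3 RPKM and then 83.0 and 83.2 RPKM (1.10, adjusted p 2.59e-04), and the other 9 did not pass. At 30 min limma called 0 genes in each of the 5 lists, as did voom. At an unadjusted p under 0.05 limma gave 3 genes of the lists, IL1B, ZFP36 and ZFP36L1, named here after their values were seen. Blocking on the replicate number, ZFP36 and ZFP36L1 were called at 30 min (adjusted p 0.00506 and 0.0418). ZFP36 measured 3.31, 3.80 and 2.52 RPKM in DMSO and 11.6, 12.9 and 7.12 RPKM after merbarone, with no overlap. Its adjusted p without the block was 0.661.

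**Figure D4:**
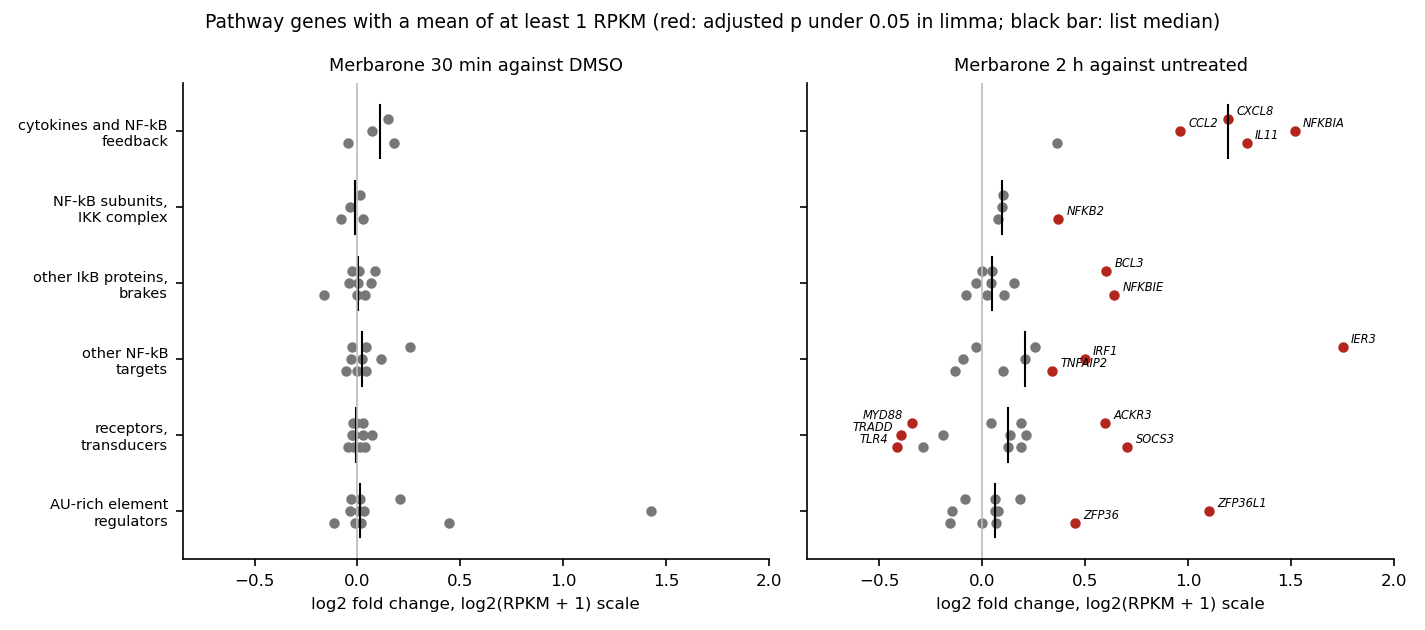
Log2 fold changes on the log2(RPKM + 1) scale (horizontal axis, shared) of each tested gene of the 10 and of 5 lists of pathway genes, at 30 min (left) and 2 h (right). Red points passed an adjusted p of 0.05 in limma, grey points did not, and black bars are list medians; at 2 h the red points of the cytokines and inhibitors run from 0.96 (CCL2) to 1.52 (NFKBIA), with CXCL8 tested only through its treated libraries, and the medians of the other lists from 0.05 to 0.21.

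Some measures of other cells moved with the 2 h groups, and their part in the results above was not tested. The summed level of 8 leukocyte markers was 21.1 to 21.3 RPKM untreated and 17.6 to 19.2 RPKM treated, nearly all of it CD68, with the T cell marker CD3E at 0. That of 3 endothelial markers was 0.0427 to 0.0515 and 0.0710 to 0.0776 RPKM, with CDH5 at 0. The 10 retinal pigment epithelium markers summed to 28.4 to 29.3 RPKM untreated and 25.5 to 29.2 RPKM treated, and the 8 epithelial and mesenchymal structure genes to 876 to 881 and 908 to 917 RPKM. In the 30 min experiment the retinal pigment epithelium markers summed to less, 9.20 to 11.7 RPKM in DMSO and 8.98 to 11.8 RPKM after merbarone.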

How the data were processed

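RPKM values per Ensembl gene were deposited by the authors in 1 table per library, per the file headers. Per the submitters' processing notes, Bowtie 1.2.0, edgeR, DESeq2 and deepTools 2.4.1 were used with hg19 (GRCh37). Which of them made the tables, the annotation and any use of strand are not given in the sources used here. Per the labels' protocols, 150 ng of total RNA per library went into a stranded mRNA kit.

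Reads were recovered from the steps between RPKM values: all were whole (within 0.0001 of a read) for 100% of the 17680 genes above 0. The implied lengths lay within 1% of the gene's whole span for 74.9% of 17234 genes, so introns count in the length, and long-intron genes have low RPKM. Coordinates are those of a GRCh37 annotation and need not be the regions counted.

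Limma 3.58.1 (R 4.3.3; lmFit and eBayes with a trend) was run on log2(RPKM + 1), two-sided, with Benjamini-Hochberg adjustment, for genes that averaged 1 RPKM or more across the fitted libraries. The 30 min and 2 h effects were fitted separately, and the difference of effects on all 10 libraries. This scale understates changes of low genes. Voom used genes with a mean of at least 10 recovered reads. It called 1 of 14012 genes at 30 min, 1886 of 13440 at 2 h and 66 of 13900 in the difference. Scripts were tested on simulated data.

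The replicate numbers of the labels were checked as pairs. At 30 min, libraries that share a number left their group means in the same direction over genes (Pearson's r 0.925, 0.646 and 0.605), so the block is used there as a pairing. The mean r of differently numbered libraries was -0.34. Deviations from a group mean cancel within the group, so this negative value largely follows from the positive ones and is no separate evidence.

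The members and lists were chosen with earlier results of these data known. Named were all 10 members, list genes called at 30 min or in the difference, up to 4 called genes per list at 2 h with the largest change, RELA and NFKB1, and the 2 genes most alike in pattern to each member with a mean of at least 1 RPKM. As alternatives, the pseudocount was 0.1, the filter was dropped or set to 5 RPKM, and there were median scaling, quantile normalization, no trend, the replicate block, voom, 1 fit of all libraries and leaving out each library. ZFP36 and ZFP36L1 at 30 min, called with the block, are named outside this rule, after their values were seen.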

Additional observations from a re-analysis of the deposited data

Results flagged for a closer look

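The effect of merbarone on NFKBIA differed between the experiments by 1.56 on the log2(RPKM + 1) scale (2 h minus 30 min), which passed limma's test of the difference itself (SE 0.20, adjusted p 0.00510). At 2 h both treated libraries lay above both untreated ones, and at 30 min 1 of the 3 merbarone libraries lay above the DMSO library of its number. Time, vehicle and experiment cannot be told apart in this contrast.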

How the results depend on the processing

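The count of the 10 genes called at 2 h was 4, with CXCL8 tested only through its treated libraries. It became 1 of 10 tested with no filter on low values, where 53 of 16810 genes were called. With a mean of at least 5 RPKM it was 2 of 3 tested, against 397 of 2233 genes. With all 10 libraries in 1 fit it was 2 of 4 tested, CXCL8 being under the filter, against 599 of 6558 genes. Quantile normalization gave 5 of 5 tested, against 784 of 6620 genes. Voom gave 6 of 7 tested, against 1886 of 13440 genes, and 6 again with the block, against 3487 genes. The count stayed 4 with the other pseudocount, median scaling and no trend. In the difference of the effects 1 was called, against 2 with no filter (NFKBIA and TNFAIP3), where 361 of 17680 genes were called. It was 3 of 4 tested with the replicate block, against 1255 of 6558 genes. With voom and the block it was 4 of 7 tested, against 2100 of 13900 genes. It stayed 1 when each library of the 30 min experiment was left out. Without each of the libraries in turn, the log2 difference of NFKBIA ran from 1.45 to 1.70. At 30 min the count was 0 throughout. Over all genes, counts ranged over the alternatives from 0 to 13 at 30 min, 53 to 3487 at 2 h and 36 to 2100 in the difference. Leaving out single libraries moved the 30 min log2 fold changes across 0: from -0.29 to 0.40 for CCL2, -0.061 to 0.470 for LIF, -0.0092 to 0.314 for IL11 and -0.180 to 0.065 for NFKBIA, and that of LIF in the difference from -0.10 to 0.43. None of these fits paired the libraries by number, so leaving 1 out also left the numbers unequal between the groups. In the 3 same-numbered pairs LIF and IL11 were higher after merbarone in 3, CCL2 in 2 and NFKBIA in 1. The cause of the moves across 0 was not tested. At 2 h same-numbered libraries deviated together with r = 0.30, but with 2 numbers only the numbers are not shown to pair. The replicate block called CCL2, IL11 and NFKBIA and added LIF (adjusted p 0.00471), where 32.2% of all tested genes were called. CXCL8, tested only through its treated libraries, was called as well. That fit has 1 residual degree of freedom, so its calls rest on a spread pooled over genes. Depth limits CXCL1, CXCL2 and CXCL3 most.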

Other observations

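The genes whose pattern was most like each of the 4 tested members over the 10 libraries, after the mean of each experiment was subtracted, were looked up among 6558 genes, as a description. The libraries share their treatment groups, so genes that respond alike correlate. For NFKBIA they were HES1 (Pearson's r 0.989), a target of Notch signalling, and ZNF518B (0.979). For IL11 they were CSPG4 (0.990), a membrane proteoglycan, and MOCS1 (0.977), an enzyme of molybdenum cofactor synthesis. For CCL2 they were CHD4 (0.965), a chromatin remodelling ATPase, and IRF1 (0.955). For LIF they were BYSL (0.953), which acts in ribosome biogenesis, and the serotonin receptor gene HTR1D (0.941). Among the members, r was 0.733 between NFKBIA and CCL2, 0.716 between IL11 and LIF, 0.663 between NFKBIA and IL11, 0.205 between IL11 and CCL2, 0.068 between NFKBIA and LIF and -0.507 between LIF and CCL2.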
